A study of Mus musculus with 24 samples.

Results

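The genes described here are 8 markers of the thalamus: Tcf7l2, Lef1, Rora, Calb2, Prkcd, Rgs16, Ntng1 and Slc17a6. They were chosen by name, with their levels in the hippocampus libraries already known, out of 55487 genes counted in each of 24 libraries. Reads were counted in polyA RNA from brain tissue of wild-type mice. The bulbectomy groups had undergone olfactory bulbectomy, an operation that removes the olfactory bulbs, and the sham groups a sham operation. There were 4 bulbectomy and 5 sham libraries of hippocampus, 3 bulbectomy and 5 sham libraries of cortex, and 2 bulbectomy and 5 sham libraries of cerebellum. The sources used here do not give strain, age, sex or the time after surgery. The labels do not say that the libraries came from separate animals, so p-values measure the spread between these samples. No library of thalamus was analysed here.

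The thalamus relays sensory and motor signals to the cortex and lies close beneath the hippocampus, with the medial habenula at its dorsal edge. Most of its neurons are excitatory and load glutamate into vesicles with the transporter VGLUT2, the product of Slc17a6. Tcf7l2 is a transcription factor that maintains the identity of thalamic and habenular neurons after they stop dividing, and it can act with beta-catenin in the Wnt pathway. None of the 8 genes is made by thalamic cells alone: Calb2 and Rora, for example, are also well known from cerebellar neurons.

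Tcf7l2 (ENSMUSG00000024985) lies on chromosome 19 at 55741820 to 55933654 of GRCm38, on the plus strand. Lef1 (ENSMUSG00000027985) lies on chromosome 3 at 131110471 to 131224356, Rora (ENSMUSG00000032238) on chromosome 9 at 68653786 to 69388246, Rgs16 (ENSMUSG00000026475) on chromosome 1 at 153740349 to 153745468 and Slc17a6 (ENSMUSG00000030500) on chromosome 7 at 51622006 to 51671119, all on the plus strand. Calb2 (ENSMUSG00000003657) lies on chromosome 8 at 110137502 to 110168210, Prkcd (ENSMUSG00000021948) on chromosome 14 at 30595354 to 30626210 and Ntng1 (ENSMUSG00000059857) on chromosome 3 at 109780040 to 110144011, all on the minus strand. All 8 are protein-coding, and none shares exon bases with a gene on its own strand. On the opposite strand, Lef1 shares 13.7% of its exon bases with Gm43352, Rgs16 10.1% with Gm28513 and Rora 0.627% with Gm15511. The strand setting of the counting is not given, so reads of these 3 genes and their partners may not be told apart.

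The stretches around the start sites of Tcf7l2, Rora and Slc17a6 are shown because these genes were higher in every bulbectomy library of hippocampus than in any sham library. The sequences are RefSeq's, from the GRCm38.p6 build, plus strand, 5′ to 3′. They run from 150 bases before the RefSeq start site to 10 bases after it, with the 10 bases that RefSeq counts as transcribed in capitals. For genes with 2 RefSeq start sites, the one nearer to the gene's start in GENCODE M21 is shown. It lies 10 bases before the GENCODE start given above for Tcf7l2 and 176 bases before it for Slc17a6, and coincides with it for Rora.
Tcf7l2, chr19:55741660-55741819: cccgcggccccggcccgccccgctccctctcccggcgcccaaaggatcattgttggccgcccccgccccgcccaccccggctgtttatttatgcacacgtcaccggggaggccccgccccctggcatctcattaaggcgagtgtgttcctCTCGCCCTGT
Rora, chr9:68653636-68653795: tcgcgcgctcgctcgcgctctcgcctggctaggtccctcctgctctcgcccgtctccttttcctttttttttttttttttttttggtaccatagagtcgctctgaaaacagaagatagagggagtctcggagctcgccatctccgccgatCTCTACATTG
Slc17a6, chr7:51621680-51621839: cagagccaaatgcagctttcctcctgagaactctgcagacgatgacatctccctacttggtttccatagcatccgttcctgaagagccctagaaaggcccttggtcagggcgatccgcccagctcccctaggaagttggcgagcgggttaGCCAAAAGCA
The Tcf7l2 stretch is the richest of the 3 in G and C, at 70.6%, against 52.5% for Rora and 55.6% for Slc17a6, and holds 16 CpG dinucleotides, against 14 and 6. Of the 8 genes, 7 had at least 1 window reaching from 250 bases before to 50 bases after a start site, 13 windows in all. The letters ATCAAAG, which TCF and LEF proteins are known to bind, were searched on both strands and found in 0 of the 13 windows, against 3.73% of 32851 mouse promoter windows. The letters AGGTCA, the site of ROR receptors, were found in 0 of 13, against 16.3% of all windows. These letters are absent from these windows, and no more can be read from the search.

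Hippocampus sham 1 and sham 2 stood apart from the other hippocampus libraries. The mean log2 level of 11 markers of striatal medium spiny neurons, in CPM (read counts relative to the TMM-scaled library total), reached 6.84 in library sham 1 and 7.07 in library sham 2. The remaining 7 hippocampus libraries lay between 2.88 and 3.57. Markers of dentate granule cells, which define the hippocampus, averaged 0.81 in sham 2 and 3.10 to 3.82 elsewhere in hippocampus. The bulbectomy libraries of hippocampus held 8145624 to 9445468 assigned reads and the sham libraries 3255661 (sham 1) to 138963332 (sham 4). The cortex and cerebellum libraries held 10073878 to 20230673. Every one of the 8 genes was counted at least 9 times in every library. Cerebellum sham 1 stood apart too: Gabra6, a receptor subunit of cerebellar granule cells, had 446 CPM there, against 96.1 to 195 CPM in the other 4 sham libraries. Values without these libraries are given beside the results that they change most.

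In the hippocampus all 8 genes had a higher fitted level in bulbectomy than in sham libraries. The median log2 fold change over the 8 was 0.84, beside 0.018 over the 13985 genes tested, of which 51.6% were higher. The genes were chosen with this contrast known, so these values are a description and carry no test. The counts of calls in hippocampus given here and for single genes below are likewise a description. At an adjusted p under 0.05 in edgeR's quasi-likelihood test, 1 of the 8 (Rora) was called, where 1.55% of all genes were called. DESeq2 called 4 of the 8 and 6.82% of all genes, and edgeR with a replicate block 2 of the 8 and 0.543% of all genes. Same-numbered libraries of these groups correlated at -0.36 to 0.03, so the block does not pair the samples. Tcf7l2, Rora, Calb2 and Slc17a6 were higher in every bulbectomy library than in every sham library, as were 4.96% of all genes. Averaged over the 8 genes, log2 CPM overlapped, at 4.63 to 5.35 in bulbectomy and 2.90 to 4.77 in sham libraries. Without sham 1 and 2, 7 of the 8 had a higher fitted level, 0 were called, where 2.48% of all genes were, and the same 4 genes stayed above every remaining sham library, as did 9.25% of all genes. The median was then 0.57. In bulk tissue more cells of a type and more RNA per cell cannot be told apart.

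**Figure D1:**
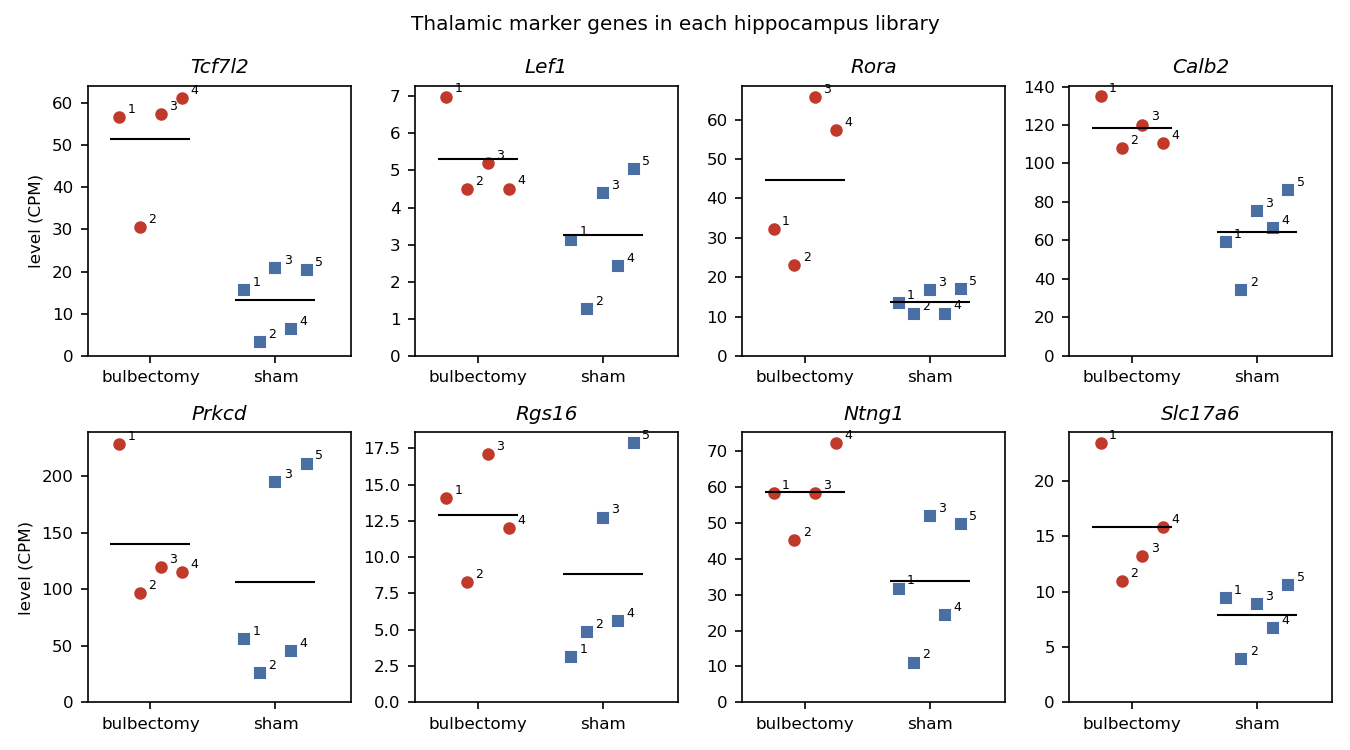
Level of each gene (vertical axis, CPM from 0) in the 4 bulbectomy libraries (red circles) and the 5 sham libraries (blue squares) of hippocampus, with library numbers beside the points and a line at each group mean. The groups are separate for Tcf7l2, Rora, Calb2 and Slc17a6 and overlap for the other 4 genes.

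Tcf7l2, the thalamic transcription factor of the TCF/LEF family, showed the largest difference of the 8. It had 56.6, 30.5, 57.3 and 61.1 CPM in bulbectomy libraries 1 to 4, against 15.7, 3.35, 20.8, 6.33 and 20.3 CPM in sham libraries 1 to 5. Bulbectomy 2 was far below the other 3 bulbectomy libraries and still above every sham library. The fitted log2 fold change was 1.97 ± 0.49 (SE), a 3.93-fold difference, and 1.74 without sham 1 and 2. Lef1, the other member of the family, was scarce, with 6.99, 4.51, 5.19 and 4.51 CPM in bulbectomy libraries, against 3.14, 1.27, 4.39, 2.43 and 5.03 CPM in sham libraries. Sham 5 exceeded 2 of the bulbectomy libraries, and the log2 fold change was 0.72 ± 0.36, or 0.46 without sham 1 and 2.

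Rora encodes an orphan nuclear receptor that acts as a transcription factor in the thalamus and in Purkinje cells. Its level was 32.2, 23.0, 65.8 and 57.3 CPM in bulbectomy libraries, against 13.4, 10.6, 16.7, 10.7 and 17.0 CPM in sham libraries. Bulbectomy 3 and 4 were well above bulbectomy 1 and 2, while the sham libraries lay close together. The log2 fold change was 1.71 ± 0.29 and ranged from 1.46 to 1.91 with any 1 library left out. It was not called without bulbectomy 4, without sham 4, or without sham 1 and 2 together, where it was 1.605.

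Calb2 encodes calretinin, a calcium-binding protein found in midline thalamic neurons and in hippocampal interneurons and mossy cells. It was measured at 135, 108, 120.2 and 111 CPM in bulbectomy libraries, against 59.3, 34.2, 75.1, 66.5 and 86.3 CPM in sham libraries. The groups did not overlap, and bulbectomy libraries varied least for this gene, with the highest at 1.25 times the lowest. Its log2 fold change was 0.88 ± 0.22, and 0.64 without sham 1 and 2. Markers of cerebellar granule cells, which also make calretinin, summed to 19.2, 7.59, 9.60 and 4.87 CPM in these bulbectomy libraries, against 4.35 to 8.56 CPM in the sham libraries. Their sum was 1137 to 2956 CPM in sham cerebellum, and their part in the Calb2 result was not tested.

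Slc17a6 carries the vesicular glutamate transporter of thalamic relay neurons. Its level was 23.4, 10.9, 13.2 and 15.8 CPM in bulbectomy libraries, against 9.41, 3.93, 8.90, 6.67 and 10.6 CPM in sham libraries. The groups did not overlap, but bulbectomy 2 and sham 5 lay next to each other. The log2 fold change was 1.02 ± 0.30, and 0.88 without sham 1 and 2.

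Prkcd, a protein kinase C widely used to mark sensory thalamic nuclei, behaved otherwise. It had 228, 96.8, 119.8 and 115 CPM in bulbectomy libraries, against 55.9, 26.2, 194, 45.7 and 211 CPM in sham libraries. Sham 3 and 5 were above 3 of the 4 bulbectomy libraries, and the other sham libraries were below all of them. The log2 fold change of 0.39 ± 0.65 was smaller than its error, and was -0.10 without sham 1 and 2.

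Rgs16, which shortens signalling by G proteins, also overlapped between groups. Its level was 14.1, 8.30, 17.1 and 11.99 CPM in bulbectomy libraries, against 3.14, 4.85, 12.7, 5.58 and 17.9 CPM in sham libraries. The highest of all 9 values was that of sham 5, and the log2 fold change was 0.53 ± 0.44, or 0.12 without sham 1 and 2. Ntng1, which encodes netrin-G1, an adhesion protein on thalamocortical axons, had 58.2, 45.1, 58.4 and 72.1 CPM in bulbectomy libraries, against 31.7, 11.1, 51.9, 24.3 and 49.6 CPM in sham libraries. Sham 3 and 5 again reached the bulbectomy range, overlapping with bulbectomy 2 alone, and the log2 fold change was 0.80 ± 0.37, or 0.49 without sham 1 and 2.

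The 8 genes shared much of their order among the libraries of each hippocampus group. Within the bulbectomy libraries, bulbectomy 2 was the lowest for 8 of 8 genes, for Lef1 by less than the printed digits. It was the lowest of its group for 24.9% of all genes tested. Bulbectomy 1 was the highest for Calb2, Prkcd, Lef1 and Slc17a6, bulbectomy 3 for Rora and Rgs16, and bulbectomy 4 for Tcf7l2 and Ntng1. The top of the group was thus not shared.

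Within the sham libraries, sham 2 was the lowest for 7 of 8 genes, all but Rgs16, and was the lowest for 20.04% of all genes. Sham 3 and 5 were both above sham 1, 2 and 4 for 7 of 8 genes, with Slc17a6 as the exception. The same order held for 19.3% of all genes tested. The highest sham library exceeded the lowest 8.04-fold for Prkcd and 6.22-fold for Tcf7l2, but only 1.601-fold for Rora. Without sham 2, an alternative chosen after seeing the data, the ratios were 4.62 for Prkcd, 3.29 for Tcf7l2 and 1.59 for Rora. In bulbectomy libraries the same ratio was 1.25-fold for Calb2 to 2.86-fold for Rora. It was smaller in bulbectomy than in sham libraries for 7 of the 8 genes, all but Rora, and for 6 of the 8 without sham 2, where Slc17a6 was at 2.14 in bulbectomy libraries, against 1.58 in the remaining sham libraries.

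**Figure D2:**
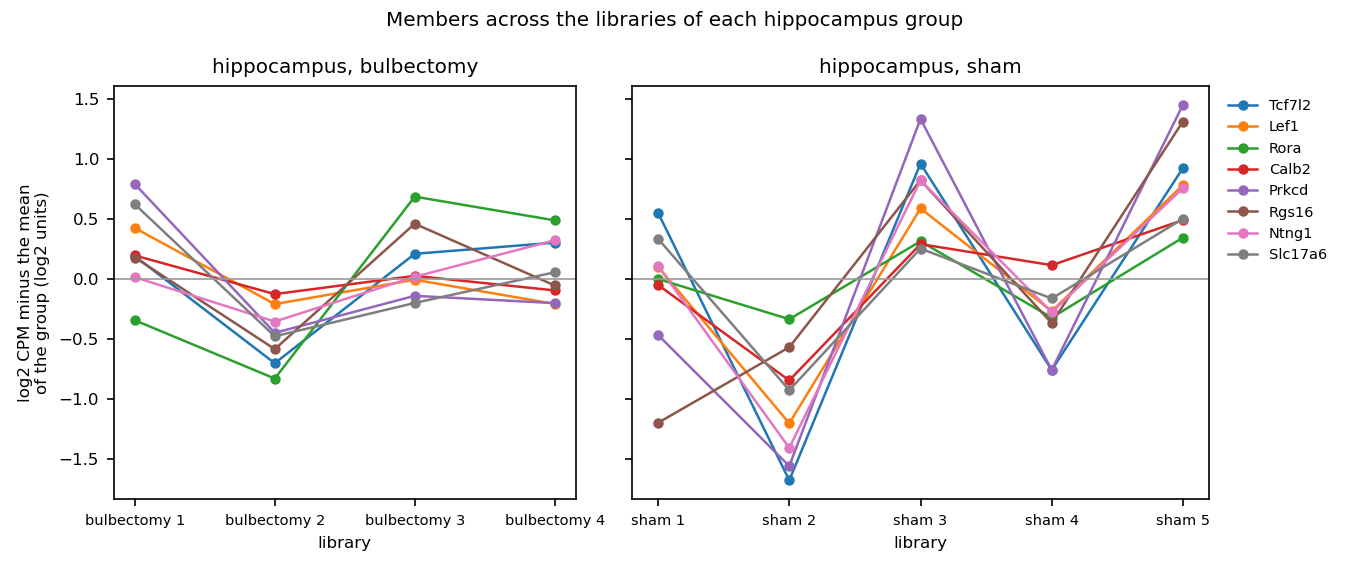
Log2 CPM of each gene minus its mean over the group (vertical axis, log2 units) in the bulbectomy libraries (left) and the sham libraries (right) of hippocampus, with 1 line for each gene. All 8 lines dip at bulbectomy 2, all 8 lie above 0 at sham 3 and sham 5, and all 8 lie below 0 at sham 2.

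Likeness to Tcf7l2 was measured as Pearson's r of log2 CPM, each as a deviation from its group mean, over the 9 hippocampus libraries. Among 13984 other genes, Ntng1 ranked 2 (r = 0.96), Lef1 22 (0.91), Slc17a6 55 (0.86), Prkcd 65 (0.85) and Calb2 93 (0.81). Rora ranked 473 (0.65) and Rgs16 779 (0.57). The r was above 0 for 7 of the 7 other members, beside 50.8% of all genes, with a median over all genes of 0.0092. These points share the libraries, their depth and their scaling, so the values are given as a description. Without sham 1 and 2 all 7 kept an r above 0 over the 7 remaining libraries. An r over 0.9 was then more common, at 1.39% of all genes against 0.179% with all 9 libraries. Ntng1 ranked 9 (0.98) and Rgs16 118 (0.92), while Prkcd ranked 302 (0.87), Lef1 648 (0.81), Rora 1428 (0.72), Calb2 1614 (0.70) and Slc17a6 1719 (0.68).

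The 5 genes most like Tcf7l2 by this measure were Adamts2 (r = 0.97), Ntng1, S1pr5 (0.94), Vipr2 (0.94) and Shox2 (0.93). Vipr2 encodes a receptor for vasoactive intestinal peptide, S1pr5 a sphingosine phosphate receptor of oligodendrocytes, Adamts2 a procollagen protease and Shox2 a homeobox transcription factor. None of the 5 was among the first 5 without sham 1 and 2, where Ntng1 ranked 9, Adamts2 30, Vipr2 36, S1pr5 86 and Shox2 188. With a prior count of 0.5 in place of 2, Shox2 ranked 18. Genes alike within the groups did not all differ between them. Vipr2 had 2.84, 1.54, 2.33 and 2.37 CPM in bulbectomy libraries, against 1.997, 0.58, 4.84, 0.66 and 4.62 CPM in sham libraries, and a log2 fold change of -0.13 ± 0.60. Adamts2 had a log2 fold change of -0.17 ± 0.26 and S1pr5 of 0.28 ± 0.19. Shox2 was further apart, at 10.3, 5.22, 13.9 and 14.0 CPM in bulbectomy libraries, against 4.56, 0, 3.83, 1.26 and 9.64 CPM in sham libraries.

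A list of 12 other thalamic genes was measured beside the 8. Of these, 11 passed the filter on low counts, 9 were higher and 2 lower in bulbectomy libraries, and 0 were called in edgeR's quasi-likelihood test, with 3 at an unadjusted p under 0.05, as were 19.98% of all genes, and 1 called by DESeq2, as were 6.82%. None was higher in every bulbectomy library than in every sham library, where 4.96% of all genes were. Their median log2 fold change was 0.30. Without sham 1 and 2, an alternative for gene lists chosen after seeing the data, 7 were higher and 4 lower and the median was 0.11. The transcription factor genes Shox2 (1.54 ± 0.85), Zic4 (1.495 ± 0.38), Gbx2 (1.199 ± 0.49) and Zic1 (1.12 ± 0.39) had the highest log2 fold changes of the list. Others lay nearer to 0, with 0.42 ± 0.51 for Ramp3, a receptor activity modifier, 0.24 ± 0.68 for Tnnt1, a troponin, and 0.15 ± 0.52 for Synpo2, an actin-binding protein. Amotl1 was at 0.23, Lhx9 at 0.30, Plekhg1 at -0.08 and Adarb1 at -0.36, and Slitrk6 was too low to test.

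The order of libraries was shared in part with this second list. Bulbectomy 2 was the lowest of its group for 10 of the 11 genes, beside 24.9% of all genes, and bulbectomy 1 the highest for 8, beside 21.6%. Sham 2 was the lowest sham library for 7, beside 20.04% of all genes, and sham 4 for 4, beside 16.6%. Sham 3 and 5 were both above sham 1, 2 and 4 for 6 of the 11, beside 7 of the 8 genes above and 19.3% of all genes. Synpo2, one of these 6, had 70.0, 32.2, 36.7 and 33.7 CPM in bulbectomy libraries, against 31.1, 13.9, 68.5, 17.0 and 65.0 CPM in sham libraries. As for Prkcd, sham 3 and 5 were close to bulbectomy 1 and above the other bulbectomy libraries.

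The mean log2 level of markers of the medial habenula, which borders the thalamus, separated the groups, but not every marker did. Of 10 listed genes 8 were tested, 5 were higher and 3 lower, and 4 were called higher, where 1.55% of all genes were called. Without sham 1 and 2, 9 were tested, 8 were higher and 1 lower, and 6 were called, where 2.48% of all genes were. With all libraries the 3 lower genes were Tac1 (log2 fold change -2.92 ± 1.34), Slc18a3 (-0.17 ± 1.26) and Nwd2 (-0.0058 ± 0.21). Tac1 had 2.37 to 7.65 CPM in bulbectomy libraries, against 2.70 to 98.6 CPM in sham libraries. Averaged over the 10 genes, log2 CPM was 2.62, 2.09, 1.98 and 1.92 in bulbectomy libraries, against 0.42, 0.95, 0.21, -0.04 and -0.54 in sham libraries. The summed level overlapped, at 55.8 to 87.3 CPM in bulbectomy and 19.7 to 138 CPM in sham libraries, with sham 1 and 2 the highest. Tac2, a neurokinin B precursor, had 29.3, 27.2, 18.8 and 18.5 CPM in bulbectomy libraries, against 3.42 to 9.94 CPM in sham libraries. The receptor gene Gpr151 had 2.37 to 8.96 CPM in bulbectomy libraries, against 0 to 0.56 CPM in sham libraries. Chrnb4, a nicotinic receptor subunit, had 3.56 to 6.44 CPM, against 0.31 to 1.07 CPM, and Gng8, a G protein subunit, 5.70 to 10.2 CPM, against 0.46 to 2.14 CPM. Pou4f1, a defining transcription factor of the habenula, had 15, 15, 8 and 10 reads in bulbectomy libraries, against 0, 0, 0, 3 and 0 reads in sham libraries, where sham 4 was by far the deepest. Sham 3 and 5, the sham libraries highest in most of the 8 thalamic genes, were not the highest of their group in the mean of the habenular list. The highest were sham 1 and 2, which also held the high striatal levels, and what these add to the habenular mean was not tested. For Gng8 the highest were sham 3, at 2.14 CPM, and sham 5, at 1.74 CPM. The habenula is also known to express Tcf7l2 and Slc17a6, and the part of habenular tissue in their levels was not tested.

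**Figure D3:**
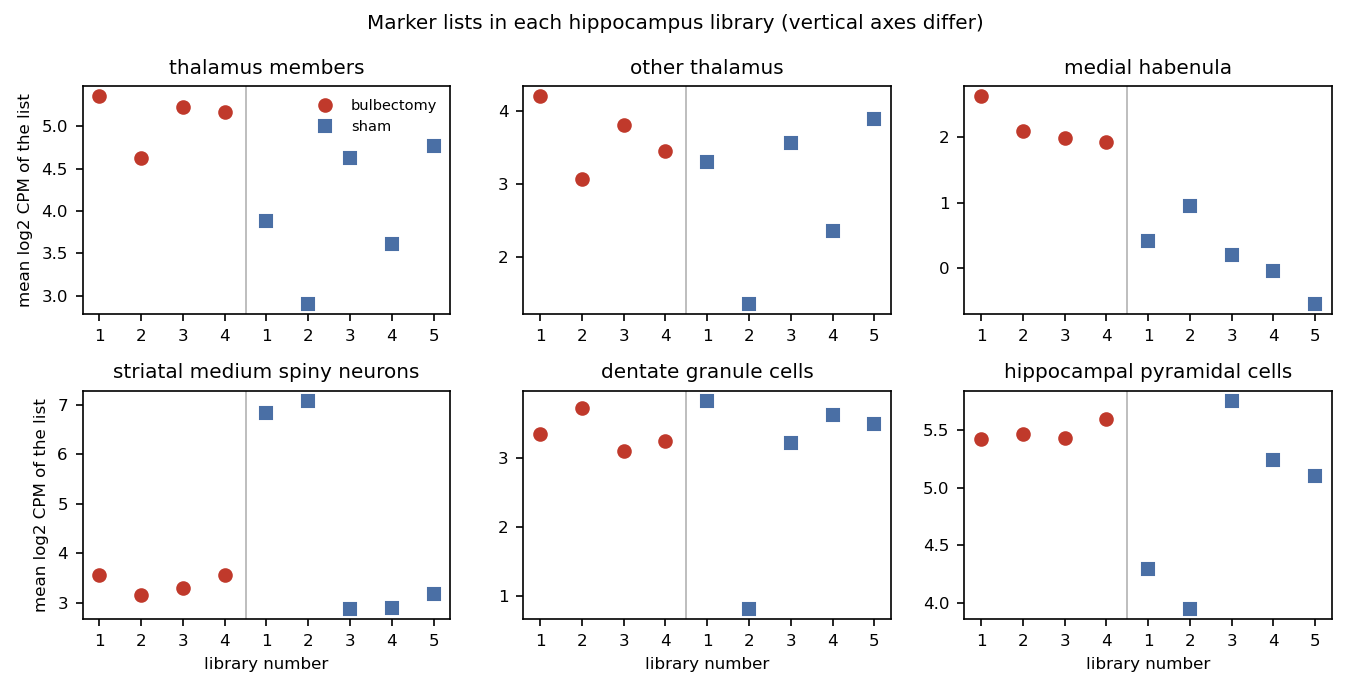
Mean log2 CPM (vertical axes, which differ) of 6 marker lists in the bulbectomy libraries 1 to 4 (red circles) and the sham libraries 1 to 5 (blue squares) of hippocampus. The habenular list separates the groups, the other thalamic list does not, the striatal list is high in sham 1 and 2, and the dentate list is low in sham 2.

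Markers of the hippocampus itself gave a different picture. Dentate granule cell markers averaged 3.34, 3.72, 3.10 and 3.24 log2 CPM in bulbectomy libraries, against 3.82, 0.81, 3.22, 3.62 and 3.49 in sham libraries. Pyramidal cell markers averaged 5.42 to 5.60 in bulbectomy libraries, against 4.29, 3.95, 5.75, 5.24 and 5.10 in sham libraries. All 11 striatal markers had lower fitted levels in bulbectomy libraries, with 0 called by edgeR, 2 at an unadjusted p under 0.05 and 2 called by DESeq2, beside 19.98% and 6.82% of all genes. Without sham 1 and 2, 8 were higher and 3 lower, 0 were called and 5 had an unadjusted p under 0.05, beside 18.6% of all genes. Sham 2, the lowest library for 7 of the 8 thalamic markers, was thus also the lowest in dentate markers and the highest in striatal markers. What these levels contribute to the thalamic results was not tested.

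Close relatives of the 8 genes were measured as well. Of 19 listed paralogs, 18 were tested, 12 were higher and 6 lower, with a median log2 fold change of 0.21. EdgeR called 0, with 3 at an unadjusted p under 0.05, beside 19.98% of all genes, and DESeq2 called 2, beside 6.82%. With sham 1 and 2 left out, 15 paralogs were higher and 3 lower, with a median of 0.27. EdgeR then called 0, with 6 at an unadjusted p under 0.05, beside 18.6% of all genes. Rorb, the nearest relative of Rora, was at 1.05 ± 0.29, while the TCF genes Tcf7l1 and Tcf7 were at 0.27 ± 0.27 and 0.05 ± 0.40. Slc17a7, the transporter VGLUT1 of hippocampal and cortical neurons, was at 0.66 ± 0.32. Calb1, which encodes calbindin, was at -0.41 ± 0.21. Ntng2 was at 0.13 and Rgs4 at -0.04. Of 15 genes of the beta-catenin pathway, through which Tcf7l2 and Lef1 can act, 13 were tested, 4 were higher and 9 lower, with a median of -0.23. EdgeR called 0, with 4 at an unadjusted p under 0.05, beside 19.98% of all genes, and DESeq2 called 2, beside 6.82%. The summed level of this list did not overlap, at 349 to 357 CPM in bulbectomy libraries, against 381 to 485 CPM in sham libraries. By gene, 1 of the 13 was lower in every bulbectomy library than in every sham library, as were 679 of 13985 genes. Leaving out sham 1 and 2 gave the same counts of 4 higher and 9 lower, with 0 called and a median of -0.36. An unadjusted p under 0.05 was then found for 4 in edgeR, beside 18.6% of all genes.

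The genes were chosen with their hippocampus levels known, and the cortex contrast was tested. Earlier results of these data were known at the choice, so the cortex p-values may not be independent of it. None of the 8 was called by edgeR's quasi-likelihood test, where 0.0202% of 14847 genes were called, and DESeq2 called 0 of the 8 and 0.263% of all genes. In bulbectomy libraries 6 of the 8 had a higher and 2 a lower fitted level than in sham libraries, with a median log2 fold change of 0.27 beside 0.0053 over all genes. Tcf7l2 alone had an unadjusted p under 0.05, as did 5.91% of all genes. Tcf7l2 and Calb2 were higher in every bulbectomy library than in any sham library, as were 2.2% of all genes.

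Tcf7l2 was scarce in cortex, at 3.79, 4.75 and 5.85 CPM in bulbectomy libraries 1, 2 and 4, against 1.14, 2.54, 2.31, 2.78 and 3.09 CPM in sham libraries 1 to 5. The groups did not overlap, but the log2 fold change of 0.99 ± 0.33 did not pass the threshold (edgeR's quasi-likelihood test, unadjusted p = 0.0102, adjusted p = 0.698). With any 1 library left out it was 0.80 to 1.14. Calb2 had 24.9, 25.1 and 26.1 CPM in bulbectomy libraries, against 18.0, 23.98, 21.9, 14.1 and 13.1 CPM in sham libraries. Its log2 fold change was 0.48 ± 0.22 (adjusted p = 0.843 by the same edgeR test), with sham 2 close to the bulbectomy range.

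Rora did not follow Tcf7l2 in cortex. It had 25.1, 23.8 and 25.7 CPM in bulbectomy libraries, against 23.4, 22.8, 23.5, 24.5 and 28.3 CPM in sham libraries. The groups overlapped throughout. Its log2 fold change was 0.019 ± 0.16, with a 95% interval from -0.30 to 0.34, and its adjusted p in edgeR was 0.988. Whether the bulbectomy effect differed between hippocampus and cortex was not tested, since the hippocampus values chose the gene.

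The other 5 genes overlapped between the cortex groups. Lef1 was at 2.44 to 3.33 CPM in bulbectomy and 0.93 to 2.50 CPM in sham libraries, with a log2 fold change of 0.63 ± 0.34. Prkcd was at 12.1 to 18.2 CPM in bulbectomy and 14.1 to 26.1 CPM in sham libraries, a difference of -0.38 ± 0.25. Ntng1 was likewise no higher, at 10.8 to 20.6 CPM in bulbectomy and 17.3 to 22.7 CPM in sham libraries (-0.26 ± 0.22). Rgs16 (0.32 ± 0.34) and Slc17a6 (0.22 ± 0.34) differed by less than their standard errors. Adjusted p for these 5 genes was 0.848 to 0.930 in edgeR's test.

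The other thalamic and the habenular lists did not separate the cortex groups in their summed or mean log2 level. For the 8 members the mean log2 CPM was 3.21 to 3.26 in bulbectomy and 2.76 to 3.14 in sham libraries. Their sums overlapped, at 93.2 to 104.5 CPM, against 88.4 to 103.6 CPM, and neither measure was tested. Of the other thalamic genes, 8 were tested in cortex, 6 were higher and 2 lower, and 0 were called by edgeR or DESeq2. In edgeR 2 of the 8 had an unadjusted p under 0.05, beside 5.91% of all genes. The summed level of this list was 139 to 214 CPM in bulbectomy libraries, against 126 to 189 CPM in sham libraries. Habenular markers summed to 45.1 to 62.5 CPM in bulbectomy libraries, against 50.3 to 68.1 CPM in sham libraries. Of 6 tested genes 4 were higher and 2 lower, with a median log2 fold change of 0.80, and 0 were called by either tool. In edgeR 3 of the 6 had an unadjusted p under 0.05, beside 5.91% of all genes. Tac2 had 11.2, 18.2 and 13.8 CPM in bulbectomy libraries, against 5.38 to 9.30 CPM in sham libraries. It alone of the 6 was above every sham library, as were 2.2% of all genes.

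**Figure D4:**
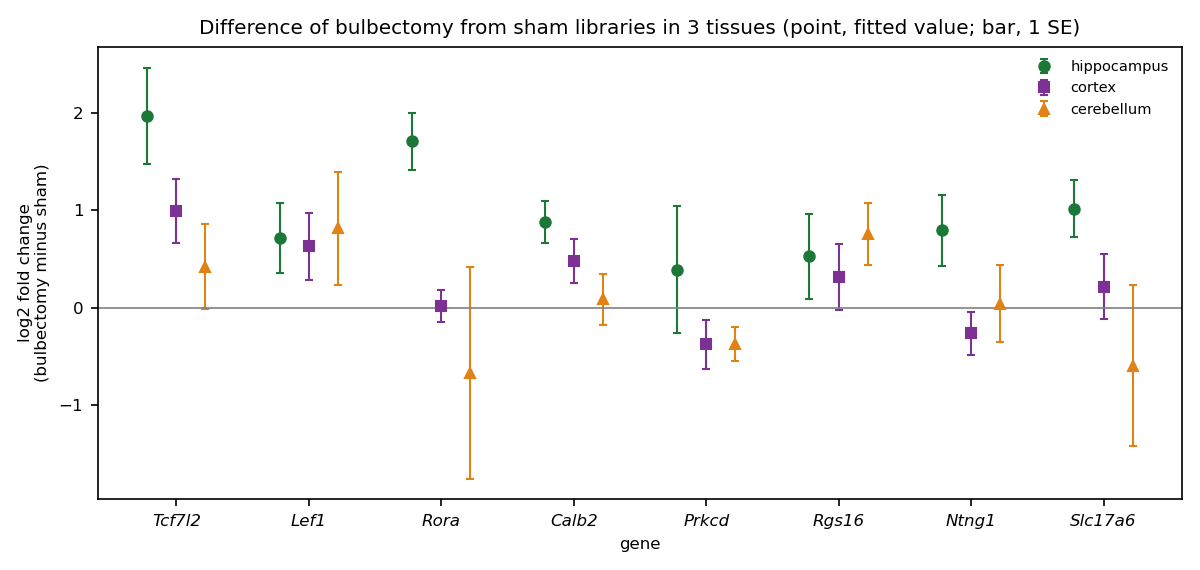
Fitted log2 fold change of each gene (vertical axis, bulbectomy minus sham; bars, 1 SE) in hippocampus (green circles), cortex (purple squares) and cerebellum (orange triangles). The hippocampus values are all above 0, and those of Tcf7l2 and Rora are the highest in the plot.

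In the cerebellum 0 of the 8 were called by edgeR's quasi-likelihood test, where 0.0131% of 15295 genes were called, and DESeq2 called 0 of the 7 for which it gave an adjusted p and 0.0785% of all genes. With 2 bulbectomy libraries, 5 of the 8 were higher and 3 lower, with a median log2 fold change of 0.062 beside -0.064 over all genes. Adjusted p was 0.9998 for each of the 8. Rgs16 alone was higher in both bulbectomy libraries than in any sham library, as were 5.97% of all genes. It had 6.20 and 5.57 CPM in bulbectomy libraries, against 3.38, 2.95, 2.92, 3.64 and 4.51 CPM in sham libraries, a log2 fold change of 0.76 ± 0.32 and the only unadjusted p under 0.05 of the 8 in edgeR (0.0462), beside 2.97% of all genes.

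Rora in the cerebellum rested on 1 library. It had 40.9 and 33.2 CPM in bulbectomy libraries, against 211, 22.8, 14.6, 28.3 and 18.9 CPM in sham libraries. Sham 1 lay far above the rest, and both bulbectomy libraries were above the other 4 sham libraries. The fitted log2 fold change was -0.67 ± 1.09 with sham 1 and 0.80 without it, where the adjusted p was 0.206 in edgeR's test.

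Prkcd was lower in both bulbectomy libraries of cerebellum, at 95.2 and 92.4 CPM, against 127, 105, 129.7, 112 and 132 CPM in sham libraries. Both bulbectomy libraries were below every sham library, as they were for 754 of 15295 genes. The log2 fold change was -0.37 ± 0.18 (edgeR's quasi-likelihood test, unadjusted p = 0.0662). Calb2 was abundant, at 745 and 917 CPM in bulbectomy libraries, against 511 to 961 CPM in sham libraries, and differed by less than its standard error (0.084 ± 0.26). Tcf7l2 was at 5.98 and 4.73 CPM in bulbectomy libraries, against 2.68 to 6.70 CPM in sham libraries. Bulbectomy 1 was above bulbectomy 2 for 7 of the 8 genes, with Calb2 as the exception, as it was for 52.6% of all genes. Lef1 (0.81 ± 0.58), Ntng1 (0.040 ± 0.39) and Slc17a6 (-0.60 ± 0.83) had overlapping groups.

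Sham libraries of the other tissues were ranked by the same count. In cortex, sham 5 was the highest for 4 of the 8, beside 27.4% of all genes, and sham 4 was among the 2 highest for 6, beside 33.0%, while no sham library was the lowest for more than 3. In cerebellum, sham 3 was the lowest for 4 of the 8 (Tcf7l2, Rora, Ntng1 and Rgs16), beside 21.2% of all genes, and no sham library was the highest for more than 3. These counts are a description, and whether the order differed between tissues was not tested.

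Levels of the 8 genes in the 3 tissues were compared over the 15 sham libraries in 1 edgeR quasi-likelihood fit. The genes were chosen with their hippocampus levels known, so calls and p-values against hippocampus are a description and no independent test. Between hippocampus and cortex, 3 of the 8 were called, all higher in hippocampus, where 3.3% of all genes were called. Without hippocampus sham 1 and 2, 5 were called, where 3.01% of all genes were, with Ntng1 and Rgs16 added. Between hippocampus and cerebellum 7 were called, where 28.4% of all genes were, and between cortex and cerebellum 4, where 34.7% were. Levels between genes are given as RPKM, reads scaled by exon length and by library depth. In hippocampus Calb2 was the highest of the 8, at 39.5 ± 11.8 RPKM (SD, n = 5), followed by Prkcd at 20.4 ± 16.7, Ntng1 at 4.37 ± 2.18 and Rgs16 at 4.01 ± 2.77 RPKM. Lef1 was the lowest, at 0.40 ± 0.18 RPKM.

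**Figure D5:**
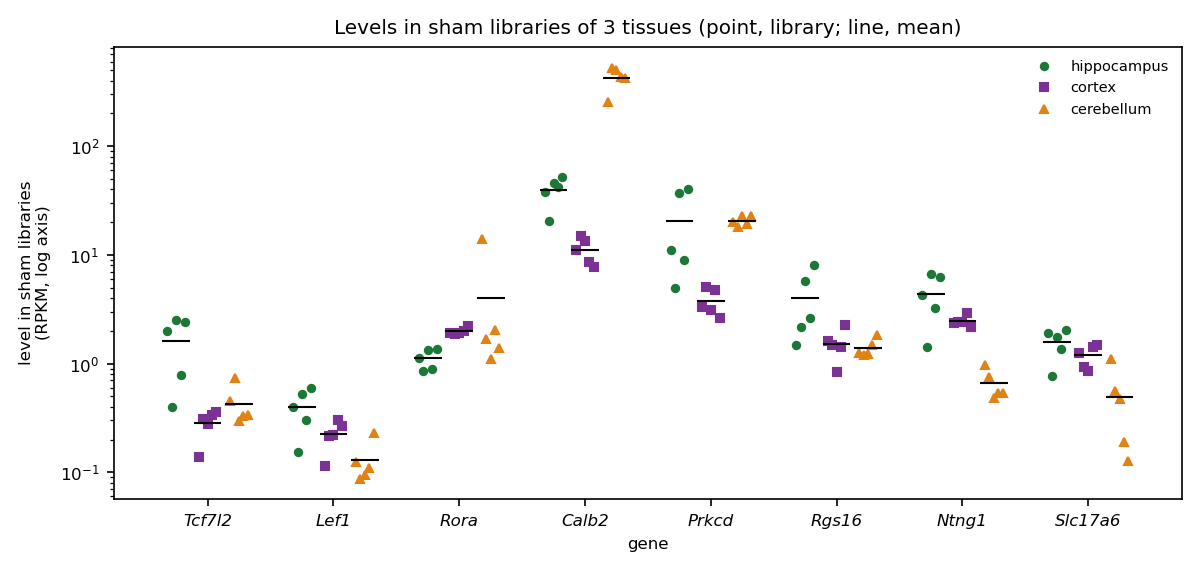
Level of each gene (vertical axis, RPKM on a log scale) in the 5 sham libraries each of hippocampus (green circles), cortex (purple squares) and cerebellum (orange triangles), with a line at each mean. Calb2 is highest in cerebellum, Tcf7l2 in hippocampus, and 1 cerebellum library lies far above the others for Rora.

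Tcf7l2 averaged 1.62 ± 0.97 RPKM in hippocampus, against 0.29 ± 0.09 RPKM in cortex and 0.43 ± 0.18 RPKM in cerebellum. Hippocampus was above cortex by 2.48 ± 0.46 on the log2 scale (edgeR adjusted p = 0.00717) and above cerebellum by 1.91 ± 0.44 (adjusted p = 0.00354). Cortex and cerebellum did not differ beyond their spread (-0.56 ± 0.44, edgeR adjusted p = 0.360). Lef1 was at 0.40 RPKM in hippocampus, 0.22 RPKM in cortex and 0.13 RPKM in cerebellum, and only hippocampus against cerebellum passed the test (1.596 ± 0.40, edgeR adjusted p = 0.00617).

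Ntng1 had the same order, with 4.37 ± 2.18 RPKM in hippocampus, 2.45 ± 0.29 RPKM in cortex and 0.66 ± 0.20 RPKM in cerebellum. Both tissues were above cerebellum, hippocampus by 2.74 ± 0.34 and cortex by 1.90 ± 0.33 (edgeR adjusted p = 1.11e-05 and 0.000276). Without hippocampus sham 1 and 2, hippocampus was above cortex by 1.13 ± 0.26 (edgeR adjusted p = 0.0307). Slc17a6 was at 1.57 ± 0.52 RPKM in hippocampus, 1.19 ± 0.29 RPKM in cortex and 0.49 ± 0.39 RPKM in cerebellum, again with both tissues above cerebellum in edgeR's test (adjusted p = 0.0109 and 0.0367). The cortex call was lost in 8 of 15 fits that left out 1 library. Rgs16 was at 4.01 ± 2.77 RPKM in hippocampus, 1.53 ± 0.52 RPKM in cortex and 1.40 ± 0.27 RPKM in cerebellum. Hippocampus was above cerebellum (1.52 ± 0.40, edgeR adjusted p = 0.00831) and missed the threshold against cortex (1.40 ± 0.40, adjusted p = 0.0675). The cortex difference was called without hippocampus sham 1 and 2 (1.82 ± 0.36, edgeR adjusted p = 0.0113), by DESeq2 (1.42, adjusted p = 0.0123), with all 24 libraries in 1 fit (1.44, adjusted p = 0.0192) and with the replicate number as a block (1.28, adjusted p = 0.0484).

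For 3 of the 8 genes, Calb2, Prkcd and Rora, the mean was highest in cerebellum. Calb2 averaged 39.5 ± 11.8 RPKM in hippocampus, 11.1 ± 3.02 RPKM in cortex and 427 ± 107 RPKM in cerebellum, and all 3 pairs of tissues differed. The log2 difference was 1.83 ± 0.26 for hippocampus against cortex (edgeR adjusted p = 0.00153), -3.43 ± 0.27 for hippocampus against cerebellum (adjusted p = 8.42e-08) and -5.26 ± 0.30 for cortex against cerebellum (adjusted p = 1.73e-09). Prkcd averaged 20.4 ± 16.7 RPKM in hippocampus and 20.6 ± 2.14 RPKM in cerebellum, a log2 difference of -0.013 ± 0.43, and 3.78 ± 1.08 RPKM in cortex, which was below both (edgeR adjusted p = 0.00799 and 0.000513). The hippocampus mean of Prkcd covers libraries from 4.98 to 40.0 RPKM.

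Rora averaged 1.12 ± 0.24 RPKM in hippocampus, 1.99 ± 0.14 RPKM in cortex and 4.05 ± 5.60 RPKM in cerebellum. The cerebellum mean holds the 14.0 RPKM of sham 1, while the lowest cerebellum library had 1.09 RPKM. Hippocampus was below cerebellum by a log2 difference of -1.86 ± 0.57 (edgeR adjusted p = 0.0221). Without cerebellum sham 1 the difference was -0.47 and was not called (adjusted p = 0.0633). The call was also lost without hippocampus sham 2 or sham 4, without sham 1 and 2 together (-1.75, edgeR adjusted p = 0.104), and without the filter on low counts, and with the replicate number as a block it was -1.198 (adjusted p = 0.0787, also edgeR). Hippocampus against cortex was at -0.83 and was not called (edgeR adjusted p = 0.619). Of the alternatives run, only leaving out cerebellum sham 1 called it (-0.81 ± 0.19, edgeR adjusted p = 0.0103), and DESeq2 gave no adjusted p for it.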

How the data were processed

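The authors deposited whole-read counts per Ensembl gene, 1 file for each of 24 libraries. Per the labels' protocols, RNA of an integrity number of at least 8 was made into directional mRNA libraries. Per the submitters' processing notes, Trimmomatic, STAR and featureCounts were used with mm10; the sources used here give no versions, strand setting or annotation release. Gene counts summed to the assigned total in 24 of 24 files; a further 6.61% to 13.26% of reads matched no gene or several and were left out. GENCODE M21 gave coordinates and exon lengths.

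Genes passing filterByExpr were scaled with TMM and fitted with edgeR's quasi-likelihood test (edgeR 4.0.16, R 4.3.3), each tissue alone for bulbectomy against sham and the 15 sham libraries together for tissues. P-values are two-sided and Benjamini-Hochberg adjusted over the genes of each fit. The script was tested on simulated data. Likeness used log2 CPM with a prior count of 2 and named the 5 genes of highest r. The alternatives were DESeq2 1.42.0, RLE scaling, no filter on low counts, all libraries in 1 fit, a replicate block, each library left out, and hippocampus sham 1 and 2 left out. No 2 libraries of a group agreed within counting noise (lowest chi-square per degree of freedom 11.8).

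The members and lists were chosen with earlier results of these data known. All members, other thalamic genes and paralogs could be named; Gabra6, the habenular genes and Pou4f1 were named after their values were seen. Replicate numbers come from the titles. Same-numbered sham libraries of hippocampus and cerebellum deviated together in 5 of 5 pairs (correlation 0.27 to 0.50), so the blocked value is printed where it changes a call there. For cortex and cerebellum 4 of 5 pairs correlated above 0.1 (range -0.195 to 0.46). For hippocampus and cortex 4 of 5 did (-0.13 to 0.52). The main fit of the sham libraries does not pair them.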

Additional observations from a re-analysis of the deposited data

Results flagged for a closer look

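Of 32 groups of 4 or 5 libraries examined, 3 held a library far from the others, and chance flags about 1 in 20 groups. Tcf7l2 was at 30.5 CPM in hippocampus bulbectomy 2, below the next lowest bulbectomy library at 56.6 CPM. Rora was at 211 CPM in cerebellum sham 1, above the next highest sham library at 28.3 CPM. Ntng1 was at 22.7 CPM in cortex sham 4, above the next highest sham library at 18.6 CPM.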

How the results depend on the processing

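In hippocampus, bulbectomy against sham, 1 member was called, beside 217 of all genes; DESeq2 called 4 (of all genes 954), a replicate block 2 (76), and 0 were called without sham 1 and 2 (348). With each library left out in turn, 0 to 3 were called: 0 without bulbectomy 4 (34) or sham 4 (72), 2 without sham 5 (299) and 3 without sham 2 (477). For sham hippocampus against cortex, 3 were called (500), 5 without hippocampus sham 1 and 2 (474), and 3 to 5 with each library left out, 5 without hippocampus sham 2 (592) or cerebellum sham 1 (1101). For sham cortex against cerebellum 3 to 4 were called under all alternatives run, beside 16.4% to 50.2% of all genes. For sham hippocampus against cerebellum 6 to 7 were called, beside 13.0% to 39.1%. In cortex, bulbectomy against sham, 0 were called under all alternatives, beside 0.0066% to 3.79% of all genes. In cerebellum 0 were called under the alternatives that kept both bulbectomy libraries, beside 0% to 0.237%. The replicate block called 4 members for sham hippocampus against cortex (765 of all genes) and 6 for sham hippocampus against cerebellum (5304). In hippocampus, bulbectomy against sham, same-numbered libraries correlated at -0.36 to 0.03, and in cortex at -0.22 to 0.18, so those numbers do not pair the samples; in cerebellum there were only 2 pairs.

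Directions turned for small or 1-library values, on the log2 scale. Prkcd in hippocampus was -0.099 without sham 1 and 2; in sham hippocampus against cerebellum it was 0.48 without them and -0.41 to 0.24 with each library left out. In cortex, Rora was -0.0030 without the filter. With each library left out, Rora in cortex ran from -0.030 to 0.050 and Slc17a6 from -0.077 to 0.52. In cerebellum, the replicate block gave -0.056 for Tcf7l2 and -0.38 for Ntng1, and with each library left out Ntng1 ran from -0.062 to 0.26, Lef1 from -0.20 to 1.43, Calb2 from -0.071 to 0.23 and Rora from -0.92 to 0.80, the last without sham 1. For sham cortex against cerebellum, the same ranges were -1.27 to 0.34 for Rora, the last without cerebellum sham 1, and -0.068 to 0.28 for Rgs16. The cause was not tested. Depth limits the scarce genes most: 3 reads equal 0.017 to 0.86 CPM in hippocampus libraries.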
